A study of Mus musculus with 33 samples.

Results

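The genes described here are 10 transcripts of the hypoxia response, 3 subunits of the hypoxia-inducible factors (Hif1a, Epas1 and Hif3a) and 7 genes that these factors are known to switch on (Car9, Slc2a1, Adm, Ndrg1, Egln3, Bnip3 and Pdk1). They were chosen by symbol and known role, with results of these data already known for Hif3a and for a hypoxia gene list, so counts over the 10 are a description. All 10 occurred in the deposited table of 48795 genes, and all 10 were among the 15846 genes tested.

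The tumours were grown from Myc-CaP, a MYC-driven line of mouse prostate cancer, injected under the skin of both flanks of male FVB mice, whose age the labels do not give. At a tumour volume of 50 mm3 the mice were randomised to 3 weeks of treatment. They received vehicle or ESK981 at 15 mg/kg by gavage on 5 days a week, and isotype control or anti-PD-1 at 200 µg per mouse into the peritoneum 3 times a week. The 33 tumours came from 5 mice in each of 4 groups: vehicle (10 tumours), ESK981 (8), anti-PD-1 (7) and both agents, called the combination (8). ESK981 is an oral inhibitor of several kinases, VEGF receptors among them, and of the lipid kinase PIKfyve, and anti-PD-1 releases a brake on T cells. Tumours are named by a mouse number within the group and by flank, as in vehicle 5R, and 13 mice had 2 tumours and 7 had 1. RNA came from whole tumours, so fewer cells of a type and less RNA per cell cannot be told apart.

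Hypoxia-inducible factors pair an oxygen-sensitive alpha subunit with the stable partner Arnt. When oxygen is plentiful, prolyl hydroxylases mark the alpha subunit for destruction through the von Hippel-Lindau protein, so that its level is set largely at the protein, which these data do not measure. When oxygen is short, the pair binds a core motif near its target genes and raises glucose uptake, glycolysis, pH control and vessel growth, which in tumours is typical of regions far from perfused vessels.

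To show where that core motif lies, promoters were taken from RefSeq on build GRCm38.p6, which matched 8 of the 10 genes and had no match for Epas1 and Ndrg1. The 250 bases before the first listed transcription start were searched on both strands for ACGTG and GCGTG, and overlapping matches, as in CACGTG, were counted on each strand. All 8 windows held at least 1 match, as did 12679 of 32851 promoter windows of the same length (38.6%). The 4 windows printed here belong to the genes on which the results turn. Capitals mark the matches, and a match is a description of the letters only. Car9 is at chr4:43506776-43507025 on the plus strand, with its match beginning 18 bases before the start. Bnip3 is at chr7:138909507-138909756, Egln3 at chr12:54203875-54204124 and Hif3a at chr7:17062428-17062677, all on the minus strand and written 5′ to 3′ along the gene.
Car9: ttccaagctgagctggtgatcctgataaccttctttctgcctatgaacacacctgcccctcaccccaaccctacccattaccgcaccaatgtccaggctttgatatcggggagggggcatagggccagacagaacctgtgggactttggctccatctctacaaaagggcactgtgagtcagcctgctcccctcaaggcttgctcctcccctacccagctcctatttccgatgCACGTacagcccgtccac
Bnip3: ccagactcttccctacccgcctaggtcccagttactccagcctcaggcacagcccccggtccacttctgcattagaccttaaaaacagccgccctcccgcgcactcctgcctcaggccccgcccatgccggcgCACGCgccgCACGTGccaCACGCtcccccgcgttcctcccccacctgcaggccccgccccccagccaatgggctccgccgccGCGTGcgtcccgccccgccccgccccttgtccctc
Egln3: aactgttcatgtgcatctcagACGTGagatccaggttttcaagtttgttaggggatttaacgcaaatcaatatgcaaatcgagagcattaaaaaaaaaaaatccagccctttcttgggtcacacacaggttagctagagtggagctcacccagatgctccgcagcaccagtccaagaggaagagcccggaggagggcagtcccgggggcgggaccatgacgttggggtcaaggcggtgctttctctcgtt
Hif3a: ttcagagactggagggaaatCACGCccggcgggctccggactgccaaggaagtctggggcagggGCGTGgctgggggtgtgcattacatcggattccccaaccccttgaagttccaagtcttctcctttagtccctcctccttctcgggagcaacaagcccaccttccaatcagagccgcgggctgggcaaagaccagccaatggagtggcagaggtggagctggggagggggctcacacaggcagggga

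Bnip3 held 5 matches, of which a pair formed 1 CACGTG palindrome, and Hif3a held 2. Egln3 held 1 match, 229 bases before the start. The remaining windows held 3 matches in Hif1a, 2 each in Slc2a1 and Adm, and 1 in Pdk1.

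Depth, recovered from the values of the table, was 9.90e+06 to 1.84e+07 fragments in vehicle tumours, 1.81e+07 to 3.24e+07 with ESK981, 1.13e+07 to 2.42e+07 with anti-PD-1 and 1.78e+07 to 2.48e+07 with the combination. Sample descriptions carry a code and a number that read as a flow cell and a lane. By that reading 9 vehicle tumours shared 1 flow cell, and vehicle 5R and all 23 treated tumours shared the other. Treatment against vehicle and flow cell can therefore hardly be told apart, and the treated groups fell in different lanes apart from 1 lane that ESK981 and the combination shared. Vehicle 5R and anti-PD-1 4R stood apart by the lowest depths of all 33 tumours and the most mitochondrial RNA (coding genes at 90856 and 52728 FPKM), and combination 5R by the most ribosomal RNA (500377 FPKM). Ribosomal RNA also differed by group, at 127087 to 240279 FPKM with vehicle and 15043 to 86387 with ESK981, without overlap. It ran from 36276 to 179159 FPKM with anti-PD-1 and from 19591 to 500377 with the combination. Its part in the differences from vehicle was not tested. Among epithelial markers checked against the label, Krt8 (median 18.0 FPKM over tumours), Cldn3 (49.4) and Hoxb13 (4.05) were present. Krt18 (0.125) and Cdh1 (0.244) were close to 0, and Epcam had a median of 0.

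Levels are FPKM, fragments scaled to exon length and library size, a unit that allows comparison between genes. By their median over 33 tumours the order was Bnip3 (34.7 FPKM), Hif1a (19.2), Slc2a1 (16.4), Hif3a (7.06), Pdk1 (6.65), Epas1 (4.15), Car9 (3.47), Ndrg1 (1.52), Egln3 (1.36) and Adm (0.670). For each target found in every tumour, the range over tumours was wider than for any subunit. The highest tumour stood 34.1 times above the lowest for Car9 and 32.6 times for Egln3, against 3.78 times for Hif1a, 2.94 for Epas1 and 3.25 for Hif3a. Adm and Egln3 rested on few fragments, 0 to 62 and 6 to 135 per tumour, whereas Hif1a had 407 to 3910 and Bnip3 571 to 4956. The plot of each gene by group shows all 33 values.

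**Figure D1:**
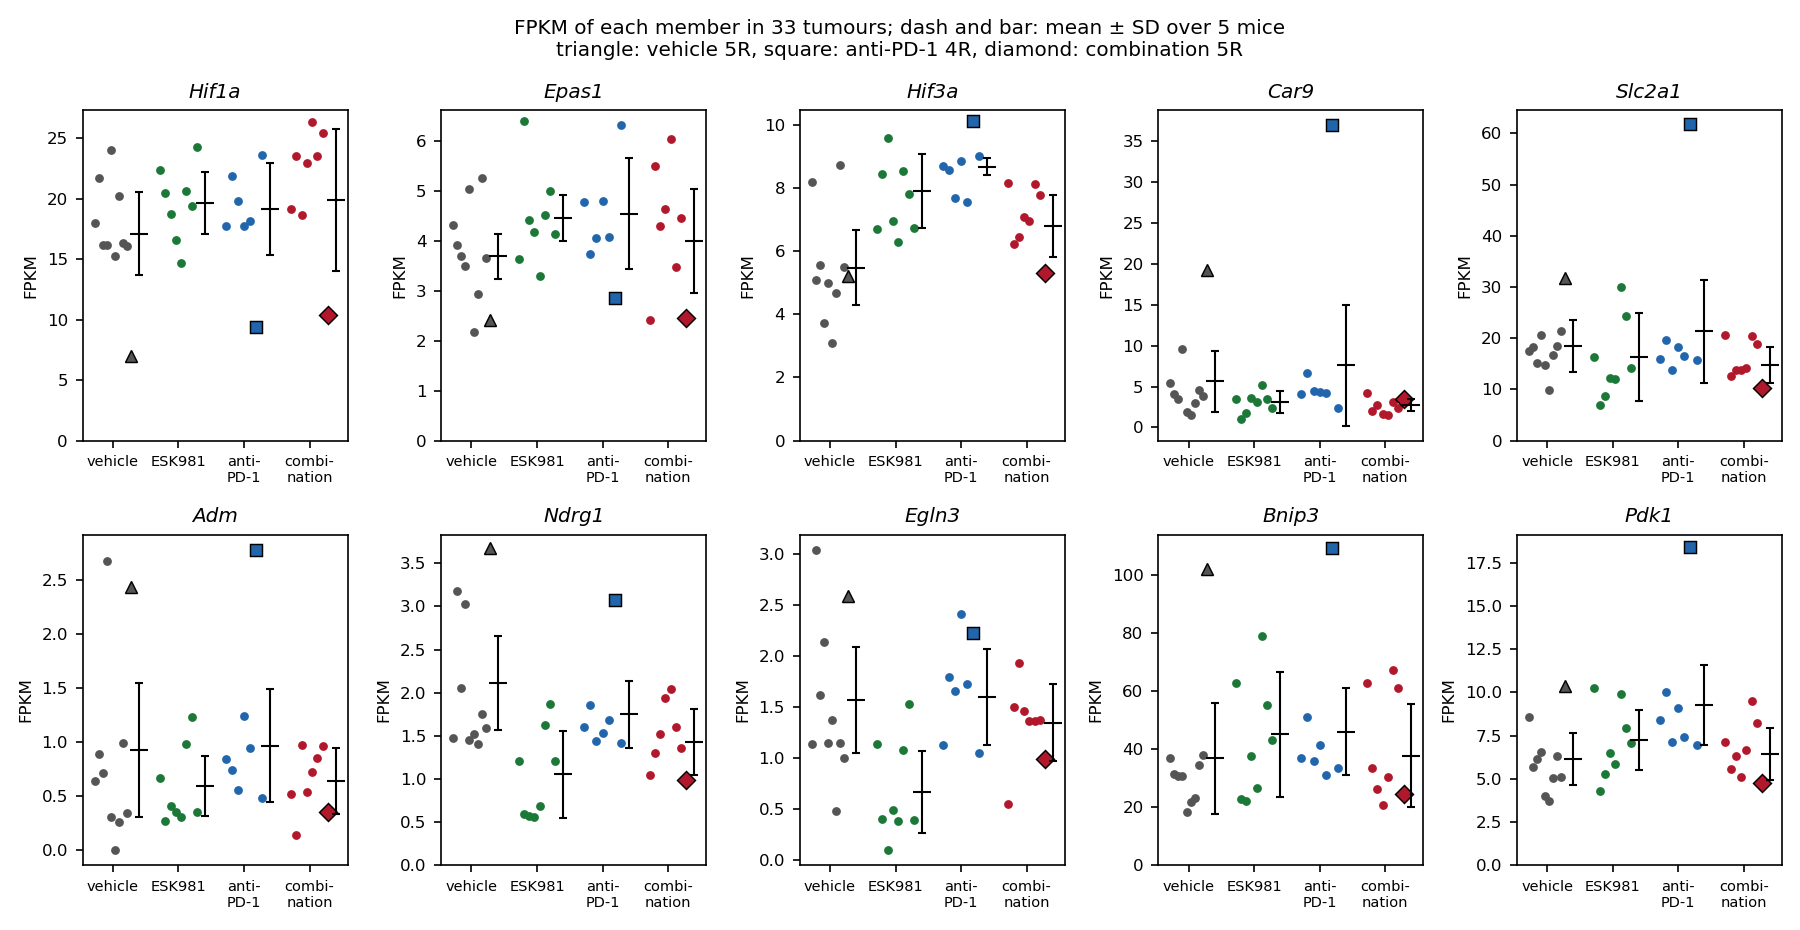
FPKM (linear axis, from 0 or just below) of each gene in 33 tumours of 4 groups, with 1 point per tumour and the mean ± SD over 5 mice as a dash with a bar. Vehicle 5R (triangle) and anti-PD-1 4R (square) lie above the other tumours of their group for Car9, Slc2a1, Bnip3, Pdk1 and Ndrg1 and below them for Hif1a.

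Hif3a, an alpha subunit whose short splice forms hold the other subunits in check and which is itself a hypoxia target, was higher in both single-agent groups than with vehicle. Over tumours, the lowest, median and highest FPKM were 3.10, 5.14 and 8.73 with vehicle, 6.27, 7.37 and 9.58 with ESK981, 7.55, 8.69 and 10.1 with anti-PD-1, and 5.31, 7.01 and 8.15 with the combination. Vehicle 1L (8.18) and 4R (8.73) lay among the treated tumours, and the other 8 vehicle tumours lay below all those of both single-agent groups. Means over mice were 5.47 ± 1.18 FPKM (SD, n = 5) with vehicle, 7.91 ± 1.16 with ESK981, 8.67 ± 0.281 with anti-PD-1 and 6.78 ± 0.981 with the combination. Differences were tested over mice with limma on log2(FPKM + 0.5), which understates the change of low genes, with Benjamini-Hochberg adjustment over all 15846 genes and calls at an adjusted p under 0.05. They measure the spread between these mice.

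Against vehicle, Hif3a rose with anti-PD-1 by 0.67 ± 0.14 (log2 difference ± SE, 1.59-fold, adjusted p = 0.0241), and the mice of the groups did not overlap. The share of all genes without overlap is not given here, so overlap between mice is a description throughout. With ESK981 Hif3a rose by 0.53 ± 0.14 (1.45-fold, adjusted p = 0.0170), with overlap between the mice. With the combination the difference was 0.33 ± 0.14, with a 95% interval from 0.04 to 0.61, and was not called (adjusted p = 0.336). In the order anti-PD-1, ESK981, combination and vehicle, no difference between neighbours was called (adjusted p = 0.683, 0.726 and 0.336). The interaction, which subtracts the ESK981 difference in the absence of anti-PD-1 from the one in its presence, was −0.88 ± 0.19 and was not called (adjusted p = 0.0857). Without combination 5R, vehicle 5R and anti-PD-1 4R it was −0.75 ± 0.17 and was called (adjusted p = 0.0258), as it was without anti-PD-1 4R alone (−0.84). Of all genes, 725 and 234 were called for the interaction in those fits, against 4 with all tumours.

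The Hif3a calls depended on single mice and on scaling. The anti-PD-1 call was lost with median-of-ratios scaling (0.53, adjusted p = 0.0635) and without vehicle mouse 2, 3 or 5 or anti-PD-1 mouse 1, 2 or 3. The ESK981 call was lost without vehicle mouse 2 or 3. The values when a mouse was left out ran from 0.57 to 0.74 for anti-PD-1 and from 0.44 to 0.60 for ESK981. Median-of-ratios scaling moved the median of all genes from 0.11 to 0.01 for ESK981 against vehicle and from 0.13 to 0.01 for anti-PD-1 against vehicle. With a flow cell term, which compares the treated tumours with vehicle 5R alone, Hif3a was at 0.52 with ESK981 (adjusted p = 0.166) and 0.69 with anti-PD-1 (adjusted p = 0.0784). The median of all genes was then 0.60 in each.

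Hif1a and Epas1, the subunits that carry most of the transcriptional response, were not called in any of the 7 comparisons. Hif1a had a lowest, median and highest FPKM of 6.97, 16.3 and 24.1 with vehicle, 14.7, 19.9 and 24.3 with ESK981, 9.35, 18.2 and 23.6 with anti-PD-1, and 10.4, 23.2 and 26.3 with the combination. Combination 5R, vehicle 5R and anti-PD-1 4R were each the lowest of their group, and the 4 groups overlapped. Means over mice ran from 17.1 ± 3.45 FPKM (SD, n = 5) with vehicle to 19.9 ± 5.86 with the combination, and the ESK981 difference from vehicle was 0.24, with an interval from −0.21 to 0.69. With the flow cell term Hif1a was called higher in all 3 treated groups (1.39 with ESK981, 1.27 with anti-PD-1 and 1.44 with the combination), which in effect sets them against vehicle 5R, the lowest of all tumours. The medians of all genes were then 0.60, 0.60 and 0.56. Epas1, which encodes the subunit HIF-2 alpha, lay between 3.69 ± 0.447 FPKM with vehicle and 4.55 ± 1.12 with anti-PD-1. Its largest difference from vehicle was 0.28, with an interval from −0.07 to 0.62.

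With ESK981, the prolyl hydroxylase gene Egln3 and Ndrg1, a stress-response gene that MYC family proteins repress, were lower than with vehicle. Egln3 lay at 0.479, 1.25 and 3.04 FPKM (lowest, median and highest tumour) with vehicle and at 0.0933, 0.441 and 1.52 with ESK981. In the other groups it lay at 1.04, 1.72 and 2.41 with anti-PD-1 and at 0.548, 1.36 and 1.93 with the combination. In 4 of the 8 ESK981 tumours Egln3 was below every vehicle tumour, and in no tumour of the other groups was it. Its means over mice were 1.56 ± 0.518 FPKM (SD, n = 5) with vehicle, 0.663 ± 0.40 with ESK981, 1.59 ± 0.474 with anti-PD-1 and 1.34 ± 0.379 with the combination.

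Egln3 fell by 0.85 ± 0.24 on the log2 scale with ESK981 (1.81-fold lower, adjusted p = 0.0247), and mice of both groups overlapped. Against anti-PD-1, ESK981 was at −0.93 ± 0.24, which was not called (adjusted p = 0.0943) but was called without combination 5R, vehicle 5R and anti-PD-1 4R (−0.90, adjusted p = 0.0419). Without those tumours 772 of all genes were called in that comparison, against 1 with all tumours. The combination was 0.75 ± 0.24 above ESK981, with an interval from 0.25 to 1.25, and was not called (adjusted p = 0.507).

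Ndrg1 lay at 1.41, 1.67 and 3.68 FPKM (lowest, median and highest tumour) with vehicle, 0.561, 0.945 and 1.87 with ESK981, 1.41, 1.60 and 3.07 with anti-PD-1, and 0.986, 1.43 and 2.04 with the combination. In 6 of the 8 ESK981 tumours and 4 of the 8 combination tumours Ndrg1 was below every vehicle tumour, and ESK981 1R, 2R, 3L and 3R held the lowest values of all. Means over mice were 2.11 ± 0.542 FPKM (SD, n = 5) with vehicle, 1.05 ± 0.50 with ESK981, 1.75 ± 0.391 with anti-PD-1 and 1.43 ± 0.383 with the combination. Ndrg1 fell by 0.76 ± 0.20 on the log2 scale with ESK981 against vehicle (1.70-fold lower, adjusted p = 0.0178). The combination differed from vehicle by −0.40 ± 0.20, which was not called (adjusted p = 0.421).

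ESK981 1R and 2R were at 19.9 and 18.9 FPKM for the sum of 8 proliferation genes, against 103 to 152 in the other 6 ESK981 tumours. Without them, and so without ESK981 mouse 2, which had only 2R, no member was called between ESK981 and vehicle. Egln3 was then at −0.53 (adjusted p = 0.114), Ndrg1 at −0.57 (adjusted p = 0.0671) and Hif3a at 0.42 (adjusted p = 0.0606). Without vehicle mouse 2 no member was called in that comparison either, and without ESK981 mouse 2 the Egln3 and Ndrg1 calls were lost.

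Of the 10 members, 3 were thus called between ESK981 and vehicle, 1 higher and 2 lower, where 14.4% of all genes were called, 8.95% higher and 5.43% lower. The members' median log2 difference was 0.00, beside 0.11 over all genes. Between anti-PD-1 and vehicle 1 of 10 was called, where 0.783% of all genes were called and 0.473% were higher, and the members' median was 0.20 beside 0.13. Limma called no member between the combination and vehicle, where 0.606% of all genes were called. At an unadjusted p under 0.05 there were 1 member and 1970 of all genes, and the members' median was −0.02 beside 0.03. All 3 comparisons share the vehicle mice. With median-of-ratios scaling the members' medians were −0.11, 0.10 and −0.05, beside 0.01 over all genes in each. For the combination the members' median was 0.15 beside 0.09 without combination 5R, vehicle 5R and anti-PD-1 4R.

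Markers of other cells and RNA moved with the ESK981 comparison. The sum of 8 macrophage markers ran from 182 to 929 FPKM in vehicle tumours and from 112 to 206 in ESK981 tumours, and 4 of 8 were called lower. For fibroblasts the sum of 6 markers ran from 44.9 to 496 and from 22.4 to 47.5 FPKM, and 3 of the 5 tested were called lower. The sum of 10 endothelial markers ran from 1.43 to 11.4 and from 8.80 to 14.8 FPKM, and 3 of the 8 tested were called higher. The sum of 9 mitochondrial genes, used as a sign of RNA quality, ran from 5026 to 79976 and from 3583 to 7996 FPKM, and 9 of 9 were called lower. None of these markers was at 0 in all tumours of either group, and their part in the differences of Hif3a, Ndrg1 and Egln3 was not tested. In the anti-PD-1 group the sums were 281 to 540 for macrophages, 49.7 to 112 for fibroblasts, 4.78 to 14.0 for endothelium and 6952 to 47945 for the mitochondrial genes, and none of these genes was called against vehicle.

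**Figure D2:**
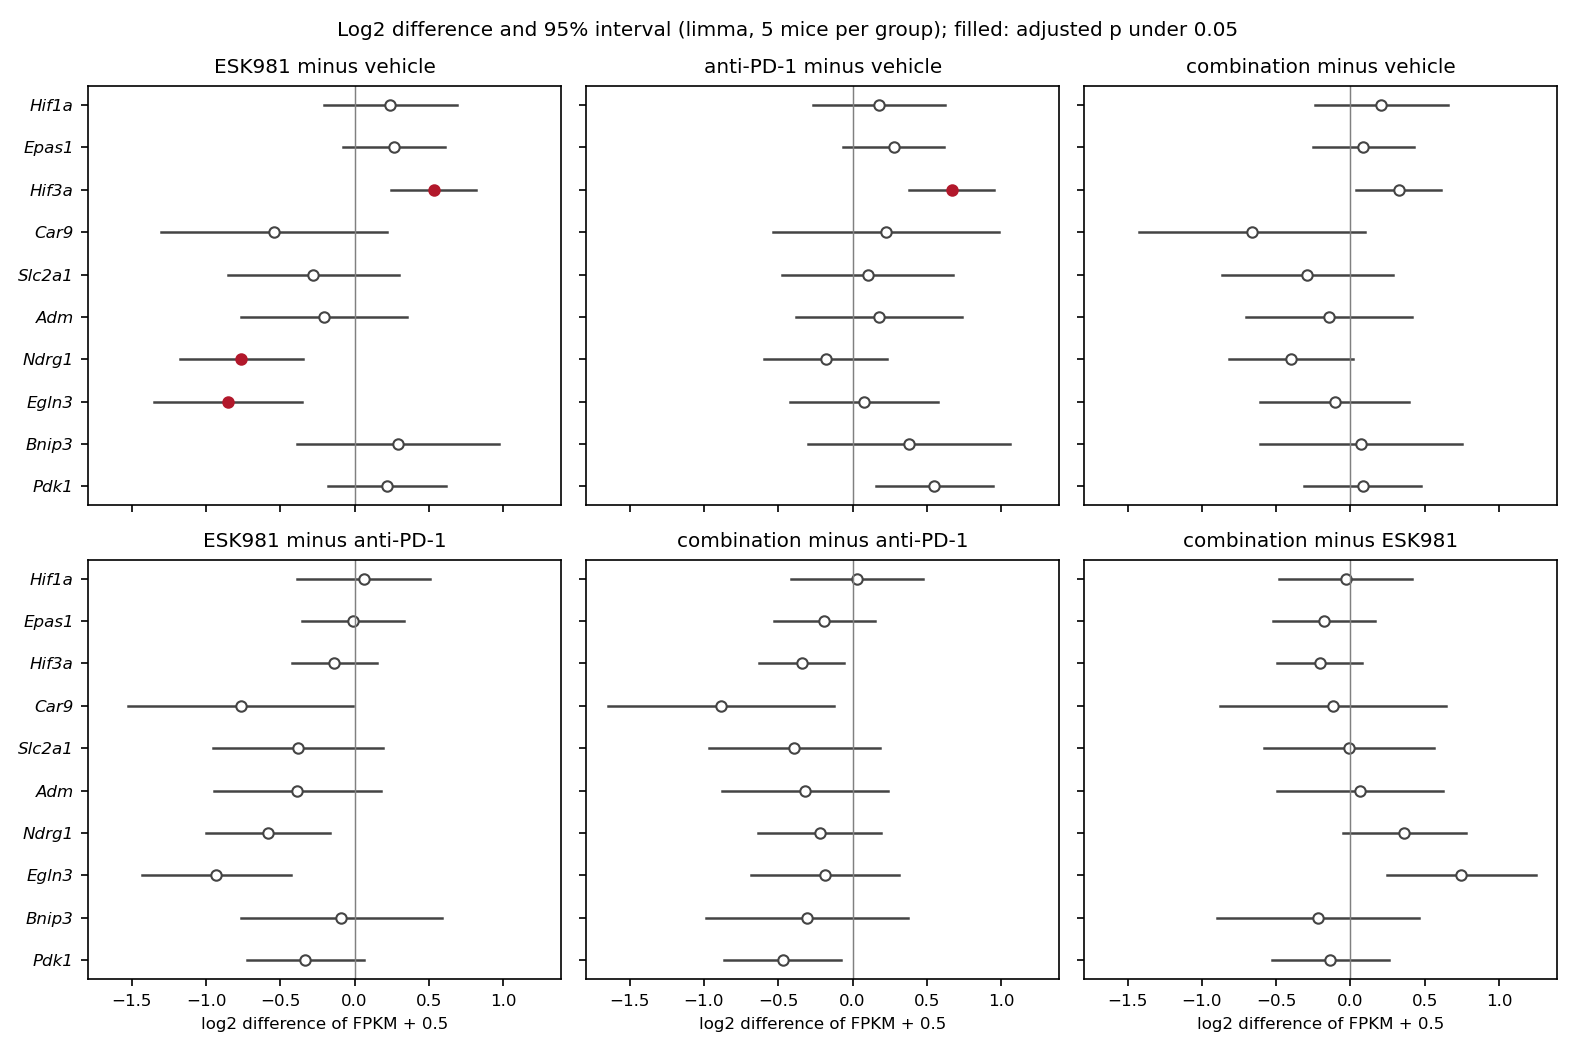
Log2 difference of FPKM + 0.5 (x axis) with its 95% interval for 10 genes (y axis) in 6 comparisons of groups of 5 mice, with filled points where the adjusted p was under 0.05. The 4 filled points are Hif3a (0.53), Ndrg1 (−0.76) and Egln3 (−0.85) for ESK981 against vehicle and Hif3a (0.67) for anti-PD-1 against vehicle.

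The other 5 targets were not called in any comparison. Car9, a carbonic anhydrase of the cell surface that helps cells export acid, averaged 5.67 ± 3.74 FPKM (SD, n = 5 mice) with vehicle, 3.12 ± 1.3 with ESK981, 7.62 ± 7.41 with anti-PD-1 and 2.71 ± 0.721 with the combination. Its median tumours were closer, at 3.97, 3.29, 4.33 and 2.55 FPKM, and the high means rested on vehicle 5R (19.3) and anti-PD-1 4R (37.0). Without these tumours and combination 5R, the only tumour of its mouse, the means were 4.13 ± 1.74, 3.12 ± 1.3, 4.35 ± 1.51 and 2.52 ± 0.671 FPKM, the last over 4 mice. Both ESK981-treated groups then still lay below the others, but no difference was called. ESK981 differed from vehicle by −0.54, with an interval from −1.3 to 0.22, and the combination by −0.66, from −1.42 to 0.10. With the flow cell term they were at −2.57 and −2.70 and were called (adjusted p = 0.0117 and 0.0130), in effect against vehicle 5R alone.

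Slc2a1, the glucose transporter GLUT1, averaged 18.5 ± 5.10 FPKM with vehicle, 16.4 ± 8.56 with ESK981, 21.3 ± 10.1 with anti-PD-1 and 14.8 ± 3.51 with the combination. ESK981 tumours spread from 7.01 in 1R to 30.1 in 4R, and the difference from vehicle was −0.28, with an interval from −0.85 to 0.30. Pdk1, a kinase that keeps pyruvate out of the mitochondria, averaged 6.16 ± 1.5, 7.22 ± 1.74, 9.27 ± 2.32 and 6.42 ± 1.5 FPKM in the same order of groups. Its anti-PD-1 difference from vehicle was 0.55 ± 0.19 and was not called (adjusted p = 0.183). Without combination 5R, vehicle 5R and anti-PD-1 4R it was 0.52 ± 0.16 and was called (adjusted p = 0.0467). Of all genes, 1769 were called in that comparison without those tumours, against 124 with them.

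Bnip3, a receptor that marks mitochondria for removal by autophagy, was the most abundant of the 10 and averaged 36.8 ± 19.3, 45 ± 21.5, 46.0 ± 15.1 and 37.7 ± 17.8 FPKM. The ESK981 difference from vehicle was 0.29, with an interval from −0.39 to 0.97, and tumours of all 4 groups overlapped. Adm, which encodes the vessel-dilating peptide adrenomedullin, averaged 0.927 ± 0.617, 0.595 ± 0.277, 0.967 ± 0.525 and 0.639 ± 0.304 FPKM. The ESK981 difference from vehicle was −0.21, with an interval from −0.77 to 0.35, and it was −1.58 and called with the flow cell term (adjusted p = 0.0352).

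Among the treated groups limma called no member. Between ESK981 and anti-PD-1, 0.00631% of all genes were called (1 gene, and 2194 genes and 3 members at an unadjusted p under 0.05), and 9 of 10 members lay below 0 with a median of −0.36 beside −0.01 over all genes. Between the combination and anti-PD-1, limma called 0% of all genes (942 genes and 3 members at an unadjusted p under 0.05), and the members' median was −0.31 beside −0.09. Car9 was at −0.89 ± 0.37 there (adjusted p = 0.730), with an interval from −1.65 to −0.13, and Hif3a at −0.34 ± 0.14 (adjusted p = 0.725) without overlap between the mice. Between the combination and ESK981 limma also called 0% (1226 genes and 1 member at an unadjusted p under 0.05), and the members' median was −0.08 beside −0.09, or 0.03 beside −0.01 with median-of-ratios scaling. For the interaction of both agents 0.0252% of all genes were called and no member was (2879 genes and 2 members at an unadjusted p under 0.05), and the members' median was −0.28 beside −0.22. Without combination 5R, vehicle 5R and anti-PD-1 4R the members' medians were −0.20, −0.09, 0.04 and −0.19 in these 4 comparisons, beside −0.05, −0.02, 0.02 and −0.11.

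The largest contrasts among the targets were between single tumours. Vehicle 5R was among the top 2 of 33 tumours for 6 of the 7 targets, and anti-PD-1 4R for 5, each of which it led. In anti-PD-1 4R, Car9 was at 37.0 FPKM against 4.24 in the opposite flank of the same mouse, Slc2a1 at 61.7 against 16.6, Bnip3 at 109 against 31.0 and Pdk1 at 18.4 against 7.42. In vehicle 5R, Car9 was at 19.3 against 3.89 in the opposite flank, Bnip3 at 102 against 37.9, Slc2a1 at 31.7 against 21.3 and Adm at 2.43 against 0.343. Hif1a went the other way, at 9.35 against 18.2 FPKM in anti-PD-1 4R and 6.97 against 16 in vehicle 5R.

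Both tumours also stood apart by depth and mitochondrial RNA. They were singled out here with their high target values known, so the counts below are a description. Combination 5R, set apart by ribosomal RNA, was in the top 2 for 0 targets. The other values of vehicle 5R and anti-PD-1 4R differed widely too. Over all genes tested, the median log2 difference from the other tumours of the group was −0.58 in vehicle 5R and −0.54 in anti-PD-1 4R. Against that shift, Car9 lay at 2.17 and 2.97, Bnip3 at 1.71 and 1.58, Slc2a1 at 0.84 and 1.89, and Hif1a at −1.17 and −0.98. In vehicle 5R, 5 of 10 members exceeded all 9 other vehicle tumours, as did 2.71% of all genes. In anti-PD-1 4R, 7 of 10 exceeded all 6 others, as did 9.47% of all genes. Of 16 glycolytic hypoxia targets tested, 10 exceeded the others of the group in vehicle 5R and 12 in anti-PD-1 4R, and of 38 other hypoxia targets 21 and 25 did. The sums of endothelial markers were 1.43 and 4.78 FPKM there, the lowest of their groups, and the sums of proliferation genes, 44.3 and 40.6 FPKM, were the lowest of their groups as well. Of all genes tested, 61.9% in vehicle 5R and 67.0% in anti-PD-1 4R also lay below every other tumour of the group, beside 7 of 8 endothelial and 8 of 8 proliferation genes in each. The 5 fibroblast markers tested went the other way, with median log2 differences of 0.89 and 0.60 from the other tumours. The part of vessels, RNA quality and depth in these values was not tested.

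**Figure D3:**
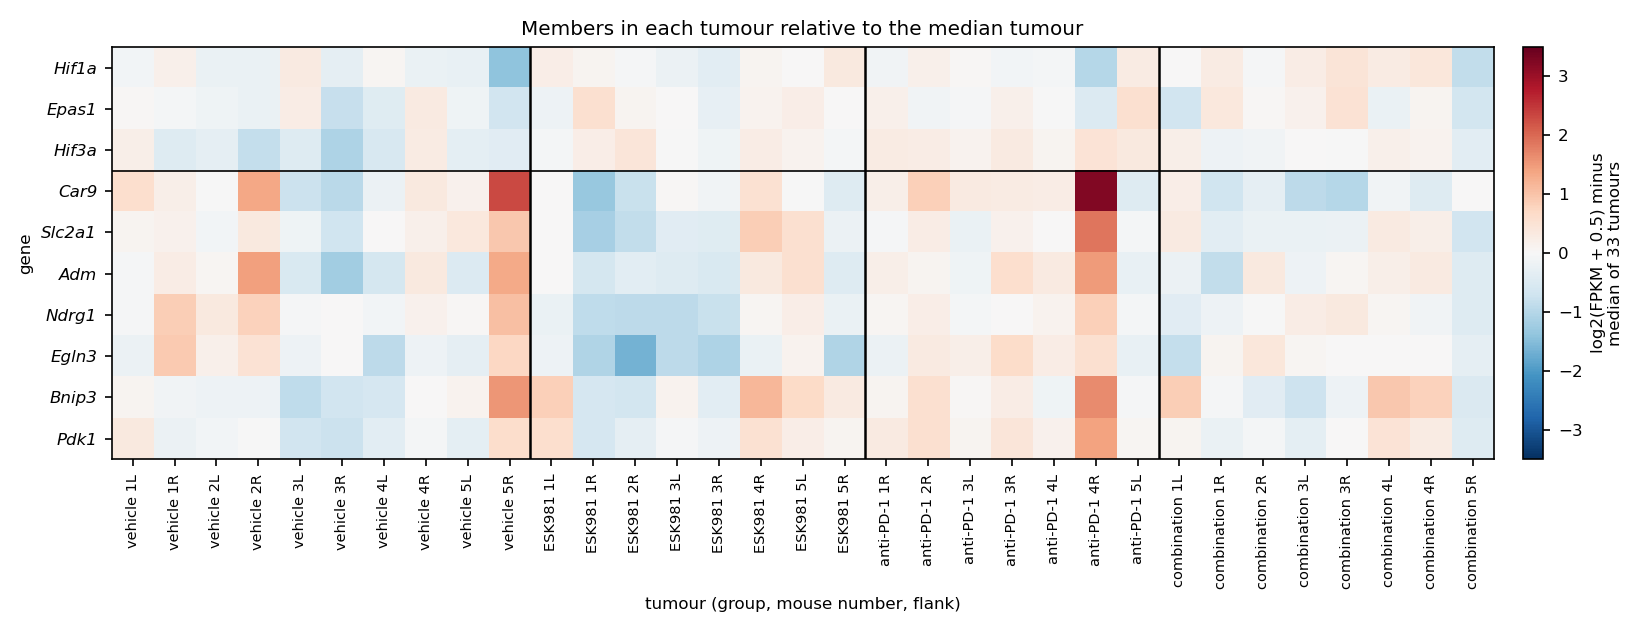
Colour gives log2(FPKM + 0.5) minus the median of 33 tumours for 10 genes (rows, subunits above the line) in each tumour (columns, groups parted by lines). Vehicle 5R and anti-PD-1 4R are red for the 7 targets and blue for Hif1a, while ESK981 1R, 2R, 3L and 3R are blue for Ndrg1 and Egln3.

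**Figure D4:**
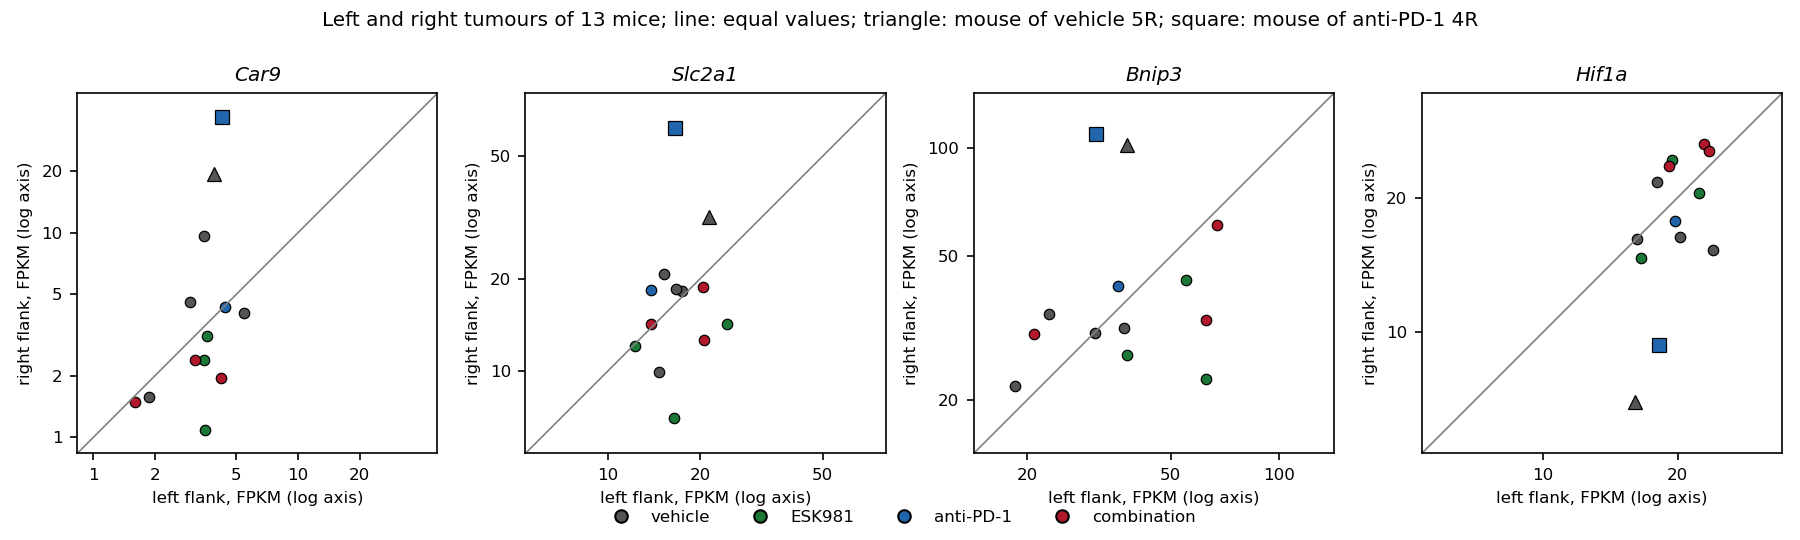
Right against left tumour of the 13 mice with both, FPKM on log axes, for Car9, Slc2a1, Bnip3 and Hif1a, with a line at equal values. The mice of vehicle 5R (triangle) and anti-PD-1 4R (square) lie far above the line for Car9 and Bnip3 and below it for Hif1a.

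Tumours of 1 mouse also differed from each other. The median absolute difference between right and left was 0.46 for Car9 on the log2 scale, 0.50 for Bnip3, 0.43 for Slc2a1 and 0.34 for Pdk1, beside SDs between mice within groups of 0.65, 0.57, 0.48 and 0.31. For Hif3a it was 0.31 beside an SD of 0.20. The gaps are between single tumours and the SDs are over mouse means that average both flanks where present, so their sizes cannot be compared directly. The largest gap of any member was 2.98 for Car9 in anti-PD-1 mouse 4, and the next for that gene was 2.17 in vehicle mouse 5.

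Across the 20 mice, as deviations from the group means, the targets varied together. Of 45 pairs, 21 had a Pearson r with a permutation p, adjusted over the pairs, under 0.05, and 19 of these were positive. Of the 21 pairs of targets 18 passed, and of the 24 pairs with a subunit 3 passed. How often pairs of other genes would pass the same permutation test was not tested. The counts of pairs therefore have no background, and whether the targets varied together more than other genes do cannot be told from them. Of the 21 pairs that passed, 20 kept an r beyond 0.5 with the same sign without the 2 mice farthest from the median of the first gene, and by Spearman 17 pairs passed, 16 of them positive. Bnip3 and Pdk1 had r = 0.90 (rho = 0.90), Slc2a1 and Pdk1 r = 0.90 (rho = 0.92) and Slc2a1 and Bnip3 r = 0.89 (rho = 0.89), each with a permutation p of 1e-05, the smallest that 100000 permutations can give, and an adjusted p of 0.00015. Without the 2 farthest mice they were at 0.88, 0.87 and 0.89.

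Ndrg1 and Egln3, the targets lower with ESK981, had r = 0.78 (rho = 0.74, adjusted permutation p = 0.00228 and 0.00785), and 0.73 without the 2 farthest mice. Hif1a and Epas1 had r = 0.78 (rho = 0.56, adjusted permutation p = 0.00228 and 0.0638). The negative pairs were Car9 with Hif1a (r = −0.59, rho = −0.48) and Car9 with Epas1 (r = −0.60, rho = −0.59). With FPKM as deposited, Hif3a passed with no other member, its highest r being 0.45 with Epas1 (adjusted permutation p = 0.0632). Without combination 5R, vehicle 5R and anti-PD-1 4R, which left 19 mice, 12 pairs passed, all 12 positive and all among the 21. Neither the pair of Hif1a and Epas1 (r = 0.48) nor that of Hif1a and Car9 (r = −0.28) passed. Bnip3 and Pdk1 were then at 0.85, and Ndrg1 and Egln3 at 0.77. With median-of-ratios scaling 23 pairs passed, but not Hif1a with Epas1 (r = 0.33, adjusted permutation p = 0.30) or Car9 with Epas1 (r = −0.33, adjusted permutation p = 0.307). Car9 with Hif1a (r = −0.68) and, by that scaling, Hif3a with Pdk1 (r = 0.59, adjusted permutation p = 0.0353) did pass.

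**Figure D5:**
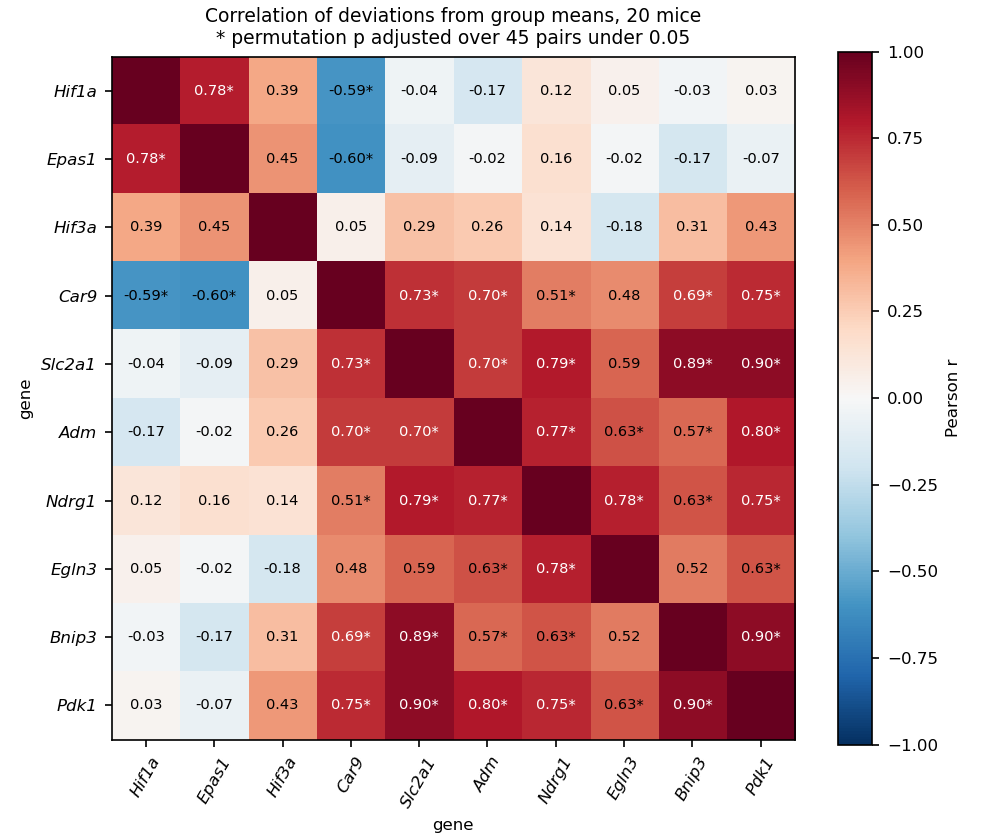
Pearson r between each pair of genes over 20 mice after subtraction of group means, printed in each cell and shown by colour from −1 to 1, with a star where the permutation p adjusted over 45 pairs was under 0.05. The block of 7 targets is positive throughout, and Car9 is negative with Hif1a and Epas1.

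Among 9091 other named genes of sufficient level, genes most like each member in the same deviations over 20 mice were, for Bnip3, Fam162a (r = 0.98) and Mxi1 (0.96), for Car9, Vegfa (0.92) and Ackr3 (0.91), and for Pdk1, P4ha1 (0.93) and Ak4 (0.91). Slc2a1 was most like Ccng2 (0.95) and Pgm2 (0.94), and Hilpda was among the 2 genes most like Adm (0.84). Ndrg1 and Egln3 shared Fstl3 as the most similar gene (0.82 and 0.86), followed by St3gal1 for Egln3 (0.77). Hif3a was most like Insr (0.81) and Pja2 (0.80), Hif1a like Fbxo33 and Tubgcp5 (both 0.96), and Epas1 like Rnf34 (0.92) and Npnt (0.91). These values share the mice of vehicle 5R and anti-PD-1 4R and carry no test.

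Of the wider pathway, 12 partners and oxygen sensors were tested. Between ESK981 and vehicle 2 were called, both higher, beside 14.4% of all genes called and 8.95% called higher. Arnt, the stable partner of the alpha subunits, rose from 6.34 ± 0.514 to 8.56 ± 1.13 FPKM (1.32-fold, adjusted p = 0.0461), and the coactivator gene Ep300 from 7.80 ± 1.24 to 10.4 ± 1.12 FPKM (1.34-fold, adjusted p = 0.0401). Arnt was called in 15 and Ep300 in 21 of 32 alternatives, and neither was without vehicle 5R alone. The median of these 12 was 0.13 beside 0.11 over all genes, and with median-of-ratios scaling 0.00 beside 0.01. Of 16 glycolytic targets 1 was called in that comparison, and it was lower, beside 5.43% of all genes called lower. This gene, the lactate exporter gene Slc16a3, fell from 2.64 ± 0.795 to 0.759 ± 0.236 FPKM (2.49-fold lower, adjusted p = 0.00193). The folds come from the limma fit of log2(FPKM + 0.5) and differ from ratios of these means. Slc16a3 was called in 31 of 32 alternatives, the exception being the flow cell term. The median of these 16 was −0.11, and −0.25 with median-of-ratios scaling. It was −0.05 without combination 5R, vehicle 5R and anti-PD-1 4R, with 7 of 16 above 0, beside 0.07 over all genes.

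Of 38 other targets tested, 3 were called lower and 3 higher with ESK981 against vehicle, beside the 14.4% called of all genes. Their median was −0.05 beside 0.11 over all genes, and −0.19 beside 0.01 with median-of-ratios scaling. Without combination 5R, vehicle 5R and anti-PD-1 4R it was −0.01 beside 0.07. The inducible nitric oxide synthase gene Nos2, which activated macrophages also express, fell from 16.4 ± 5.70 to 1.96 ± 1.10 FPKM (7.35-fold lower, adjusted p = 0.00151). Hmox1, a haem-degrading enzyme also made by macrophages, fell from 20.3 ± 5.98 to 8.27 ± 2.33 FPKM (2.32-fold lower, adjusted p = 0.00810). The metal-binding protein gene Mt1 fell from 101 ± 7.42 to 51.7 ± 12.7 FPKM (1.95-fold lower, adjusted p = 0.00727). The sums of macrophage markers given with the ESK981 comparison moved with these genes. With the combination, where Mt1 was also called lower, 0 of 8 macrophage markers were called against vehicle and 0 lay above 0. Their sums ran from 90.2 to 884 FPKM there, and the part of macrophages was not tested. Of the 38 targets, those called higher with ESK981, named after their values were seen, were Stc1 (1.76-fold), Kdm3a (1.40-fold) and Insig2 (1.38-fold). For ESK981 against vehicle, Stc1, Mt1 and Hmox1 were called in all 32 alternatives and Nos2 in 31, but Kdm3a in 16 and Insig2 in 17. With the combination against vehicle only Mt1 was called among all 3 lists (1.98-fold lower, adjusted p = 0.0241, called in 26 of 32 alternatives), and the glycolytic median was −0.20 with 16 of 16 genes below 0. Without combination 5R, vehicle 5R and anti-PD-1 4R that median was 0.00, with 8 of 16 above 0, beside 0.09 over all genes. In the other 5 comparisons limma called no gene of the 3 lists. At an unadjusted p under 0.05, anti-PD-1 against vehicle had 1 of the 12 partners, 0 of the 16 glycolytic genes and 7 of the 38 others, and ESK981 against anti-PD-1 had 1, 3 and 8. Of all 15846 genes, 2089 and 2194 had such a p in these 2 comparisons. The combination had 1, 3 and 5 against anti-PD-1 and 1, 1 and 3 against ESK981, and the interaction had 3, 1 and 9. Among all genes the numbers were 942, 1226 and 2879 in that order.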

How the data were processed

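The deposited values are FPKM per gene, made by the authors from total RNA libraries after ribosomal RNA depletion. Per the submitters' processing notes the tools were STAR and featureCounts on build mm10. Tool versions, annotation and strand setting are, for this table, not given in the sources used here, so overlapping and antisense genes cannot be told apart. Low FPKM values of every tumour were whole multiples of 1 fragment (100% within 0.01), which gave depth and, for 8 of the 10 genes whose versioned identifier matched GENCODE M21, fragment numbers.

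Tumours of 1 mouse were averaged as log2(FPKM + 0.5). A gene needed 0.5 FPKM in 5 or more tumours to enter the single limma fit (version 3.58.1, R 4.3.3, trend) of 20 mice, two-sided, with 16 residual and 5.07 prior degrees of freedom, for 6 differences between groups and the interaction. Permutation tests were two-sided and permuted mice within groups. The method was tested on simulated data without a flow cell difference or outlying tumours, so that test says nothing about these. The 10 genes, 3 pathway lists and marker lists were chosen with earlier results of these data known. Besides the 10, genes are named where a pathway list gave a call (up to 3 per list and comparison by adjusted p) or as the 2 most correlated with a member, and a few of these and of the markers are not reported here. Alternatives, run for correlations with another pseudocount, with median-of-ratios scaling and without 3 tumours, otherwise changed the pseudocount, filter, scaling, unit (single tumours, mouse as correlated unit), flow cell term and the tumours, mice or groups used, and leaving out vehicle 5R or anti-PD-1 4R alone was chosen after seeing the data.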

Additional observations from a re-analysis of the deposited data

How the results depend on the processing

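The direction of the 4 called differences, Hif3a, Ndrg1 and Egln3 for ESK981 and Hif3a for anti-PD-1 against vehicle, held in all 32 alternatives run for each. For ESK981 against vehicle, Hif3a was called in 28 of 32 (0.40 to 0.60), Ndrg1 in 29 (−1.54 to −0.57) and Egln3 in 28 (−1.55 to −0.53), and for anti-PD-1 Hif3a was called in 24 (0.53 to 0.74). Leaving out 1 mouse at a time, the number of members called ran from 0 to 3 for ESK981 against vehicle, from 0 to 1 for anti-PD-1 against vehicle and from 0 to 1 for ESK981 against anti-PD-1 (Egln3 at −1.03 without anti-PD-1 mouse 5). Median-of-ratios scaling called 0 members for anti-PD-1 against vehicle. Without combination 5R, vehicle 5R and anti-PD-1 4R, 2 members were called for anti-PD-1 against vehicle, 1 for ESK981 against anti-PD-1 and 1 for the interaction, and 12 pairs of members correlated. Of all genes, 1769, 772 and 725 were called in these comparisons, against 124, 1 and 4 with all tumours. Without ESK981 1R and 2R, 0 were called for ESK981 against vehicle, and without anti-PD-1 4R alone 1 for the interaction, where 234 of all genes were called. The flow cell term depends on vehicle 5R, and with it 5 were called for ESK981 against vehicle (Hif1a 1.39, Car9 −2.57, Adm −1.58, Ndrg1 −1.54, Egln3 −1.55), beside 5786 of all 15846 genes. For the combination 3 were called, beside 4467 of all genes, and for the interaction 2, beside 4033. The median of all genes was then 0.60 for ESK981 and 0.56 for the combination against vehicle. The cause of these changes was not tested beyond the tumours left out. Without the filter on low values, Egln3 lost its ESK981 call. The all-gene count for ESK981 against vehicle was 2278, but 4420 with median-of-ratios scaling, 4438 with upper-quartile scaling, 5786 with the flow cell term, 4796 without the 3 tumours, 1412 without a filter and 1390 without ESK981 1R and 2R. No paired analysis was possible because the labels identify mice by ear tags that no groups share, and the mouse numbers used here only name different animals. Of 2121 uncalled values, 100 had the opposite sign in an alternative. Of the 8 genes with fragment numbers, Adm and Egln3 had the fewest.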
